A study of Mus musculus with 21 samples.

Results

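The lysosome is the acidic compartment in which the cell breaks down proteins, glycans and lipids, and the genes described here encode its enzymes, its membrane proteins and the proton pump that acidifies it. The set holds 50 genes of the 19938 that the array names by a single symbol. It was chosen by symbol: 27 listed genes for hydrolases, their cofactors and membrane proteins, every gene whose symbol begins Atp6v0 (8 genes) or Atp6v1 (13 genes), and the accessory subunits Atp6ap1 and Atp6ap2. Each gene was read from its brightest probeset. Of the 50, 47 were bright enough to be tested among 13956 genes in all, and Atp6v0d2, Atp6v1c2 and Atp6v1g3 were not. Atp6v0c, the proteolipid subunit, has no probeset with a single symbol, so the rule left it out and it was not analysed here.

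Signals came from whole-transcript arrays of mouse muscle stem cells (satellite cells), sorted as YFP-positive cells from hindlimb and taken straight to RNA without culture. All mice were 3 to 5 months old, carried Pax7CreER/+;Rosa26REYFP/+ and had received tamoxifen at least 2 weeks earlier, so that both the YFP tracer and any gene deletion depend on Cre expressed from Pax7. Contralateral cells (CSC) came from the uninjured limb of mice whose other limb had been injured with BaCl2, and quiescent cells (QSC) from noninjured mice. The study asks how a distant injury changes resting stem cells and what mTORC1 and the HGF receptor cMet contribute. The knockout groups were TSC1flox/flox QSC, Rptrflox/flox (Rptor KO) CSC at 2.5 days and QSC, and cMetflox/flox CSC at 2.5 days and QSC, with 1 pool each, measured on 2 arrays. The WT groups were CSC at 28 days (1 pool, 2 arrays), CSC at 2.5 days (3 pools, 4 arrays) and QSC (3 pools, 5 arrays). A pool held 3 to 4 mice, on a mixed C57BL6 background except the cMet KO mice, which were C57BL6 mixed with FVB. A group of a single pool has no replicate of its own, so its genotype or time and that pool cannot be told apart; for the cMet KO groups the same holds of the strain.

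Lysosomal enzymes are made in the endoplasmic reticulum, sorted by mannose 6-phosphate and matured in the acid lumen. The V-ATPase provides that acid: its membrane-embedded V0 sector carries protons and its peripheral V1 sector hydrolyses ATP. The same pump, with the Ragulator complex and the Rag GTPases, forms the platform on the lysosomal surface where mTORC1 is switched on by amino acids. TSC1 belongs to the complex that restrains mTORC1, and raptor (Rptor) is a subunit mTORC1 needs. In mammalian cells, the MiT/TFE transcription factors (Tfeb, Tfe3, Mitf) bind an E-box-like element near the start of many lysosomal genes, and mTORC1 holds Tfeb in the cytoplasm.

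The promoters were searched for the core of that element. RefSeq promoters (GRCm38.p6, 250 bases before to 50 after the start) were at hand for 41 of the 50 members, as 44 sequences. The letters TCACGTG, searched on both strands, were present in 12 of these 44 sequences (27.3%), against 1237 of all 32851 promoters (3.77%). The shorter core CACGTG, which lies within TCACGTG, was present in 13 of 44 (29.5%), against 7.15% of all promoters. The longer palindrome that extends CACGTG by GT before it and AC after it was present in 0 of 44, against 0.326% of all promoters. A match describes these windows and is no measured binding site. The promoters that hold TCACGTG are shown because the members are split by these letters further on; most member promoters lack them. The first match of each is printed 5′ to 3′ along the gene's strand with 17 bases on either side where the window allows, and CACGTG is in capitals.
Lamp1: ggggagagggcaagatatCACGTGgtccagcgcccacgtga
Ctsa: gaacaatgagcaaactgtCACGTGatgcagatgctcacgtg
Gaa: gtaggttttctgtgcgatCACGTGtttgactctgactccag
Gla: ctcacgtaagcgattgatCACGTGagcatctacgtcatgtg
Glb1: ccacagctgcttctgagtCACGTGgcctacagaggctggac
Naglu: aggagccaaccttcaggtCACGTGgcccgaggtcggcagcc
Sgsh: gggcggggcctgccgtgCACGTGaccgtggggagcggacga
Atp6v0b: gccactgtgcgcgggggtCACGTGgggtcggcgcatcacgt
Atp6v0d1: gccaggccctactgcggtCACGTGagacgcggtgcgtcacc
Atp6v0e: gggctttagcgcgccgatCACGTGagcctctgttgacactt
Atp6v1a: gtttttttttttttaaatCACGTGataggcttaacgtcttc
These windows lie at chr8:13159082-13159122 (plus strand), chr2:164833743-164833783 (plus strand), chr11:119267805-119267845 (plus strand), chrX:134601210-134601250 (minus strand), chr9:114401012-114401052 (plus strand) and chr11:101070003-101070043 (plus strand). The others lie at chr11:119355516-119355556 (minus strand), chr4:117887343-117887383 (minus strand), chr8:105566045-105566085 (minus strand), chr17:26676381-26676421 (plus strand) and chr16:44139368-44139408 (minus strand). Lamp1 held TCACGTG at 4 separate places, and Ctsa, Ctsd, Gla and Atp6v0b held it at 2 each.

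Both Ctsd, which holds CACGTG at 2 places, and Lipa, which holds it at none, recur in the comparisons below. Their whole promoters are given for contrast, with CACGTG in capitals.
Ctsd: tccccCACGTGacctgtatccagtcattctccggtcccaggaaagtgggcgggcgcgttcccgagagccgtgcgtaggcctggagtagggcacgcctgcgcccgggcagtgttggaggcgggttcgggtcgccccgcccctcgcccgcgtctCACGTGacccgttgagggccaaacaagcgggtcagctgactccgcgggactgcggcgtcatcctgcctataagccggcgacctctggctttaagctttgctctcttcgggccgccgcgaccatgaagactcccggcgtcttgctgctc
Lipa: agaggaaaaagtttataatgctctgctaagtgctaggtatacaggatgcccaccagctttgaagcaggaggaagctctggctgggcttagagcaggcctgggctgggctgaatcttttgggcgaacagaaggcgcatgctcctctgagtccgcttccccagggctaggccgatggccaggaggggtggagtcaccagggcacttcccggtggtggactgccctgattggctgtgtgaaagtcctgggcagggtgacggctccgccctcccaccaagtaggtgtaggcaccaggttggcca
The Ctsd promoter lies at chr7:142387778-142388077 (minus strand) and the Lipa promoter at chr19:34527425-34527724 (minus strand).

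Pax7, the transcription factor that defines satellite cells, had a log2 signal of 10.27 to 12.10 over the 12 pools. Arrays of the same pool correlated at 0.957 to 0.996. The excised exons are not measured on their own by these whole-transcript probesets, so the targeted genes check the labels only weakly. Tsc1 read 8.16 in the TSC1 KO pool, against 8.34 to 8.69 in the WT QSC pools. Rptor read 8.85 in the Rptor KO CSC pool, against 9.43 to 9.84 in WT CSC at 2.5 days, but 9.19 in the Rptor KO QSC pool lay inside the WT QSC range of 8.91 to 9.58. Met read 10.13 in the cMet KO CSC pool, against 10.63 to 10.94 in WT CSC at 2.5 days, and 10.25 in the cMet KO QSC pool, against 9.93 to 10.11 in WT QSC. In bulk RNA of this kind, fewer cells of a type and less RNA per cell cannot be told apart. All values below are log2 RMA signals or log2 differences. Signals of different genes are not compared, because each probeset has its own response.

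The first question is what a distant injury does to these genes in WT cells. At 2.5 days, 6 of the 47 tested members differed between WT CSC and WT QSC (adjusted p under 0.05 by limma, Benjamini-Hochberg over all 13956 genes). Of all genes tested, 18% passed in this comparison, 10.6% in the higher and 7.36% in the lower direction, so the share among the members was not above it. The lysosomal β-glucuronidase Gusb and the V-ATPase subunits Atp6v0a2, Atp6v1b2 and Atp6v1e1 were higher in WT CSC. The GM2 activator Gm2a and the acid lipase Lipa were lower. The other 41 tested members did not pass, and the median difference over the 47 was -0.14, against -0.05 over all genes.

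Gusb, which removes glucuronic acid from glycosaminoglycans, read 8.46, 8.05 and 8.15 in the WT CSC pools, against 7.52, 6.95 and 7.59 in the WT QSC pools. The 2 groups did not overlap, and the difference was 0.87 ± 0.19 (SE; n = 3 pools each; limma adjusted p = 0.0171). It was the only one of the 10 glycosidases and sulfatase members to pass. Of the others, Gla differed by -0.55 and Hexa by -0.38. Gla encodes α-galactosidase A and Hexa the α subunit of β-hexosaminidase.

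Among the lipid-handling members, Gm2a and Lipa were both lower. Gm2a encodes the cofactor that presents GM2 ganglioside to β-hexosaminidase, and its pools read 9.82, 9.43 and 9.54 in WT CSC, against 10.35, 10.28 and 10.001 in WT QSC. Its groups were separate, by -0.61 ± 0.15 (SE; limma adjusted p = 0.0265). Lipa, which frees cholesterol and fatty acids from lipoprotein cargo, read 8.30, 8.42 and 8.38 in WT CSC, against 9.24, 8.87 and 8.68 in WT QSC. These groups were separate too, by -0.57 ± 0.16 (SE; limma adjusted p = 0.0401). The ceramidase Asah1 differed by -0.54 and the saposin precursor Psap by -0.23, both with overlapping pools.

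The V-ATPase subunits did not move as one. Atp6v0a2 encodes an isoform of the V0 a subunit, the part that steers the pump to particular membranes, and read 10.24, 9.85 and 9.85 in WT CSC, against 9.52, 8.84 and 9.27 in WT QSC. The difference was 0.77 ± 0.20 (SE; limma adjusted p = 0.0277), with every WT CSC pool above every WT QSC pool. The array carries a second, dimmer Atp6v0a2 probeset whose difference was -0.09, and the mean of both gave 0.34 with an adjusted p of 0.109. The isoform a1 (Atp6v0a1) gave the opposite sign: 9.26, 9.30 and 9.19 in WT CSC, against 10.24, 9.67 and 9.59 in WT QSC. Its difference of -0.59 missed the threshold (limma adjusted p = 0.0531), and the a3 isoform Tcirg1, outside the set, differed by -0.09.

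In the V1 sector, Atp6v1b2 and Atp6v1e1 were higher. Atp6v1b2 encodes the B subunit used in most tissues and, with the A subunit, forms the ATP-hydrolysing head. It read 10.52, 10.44 and 10.59 in WT CSC, against 9.85, 10.20 and 9.86 in WT QSC, a difference of 0.55 ± 0.14 (SE; limma adjusted p = 0.0281). Atp6v1e1, part of the stalk that joins the 2 sectors, read 9.28, 9.07 and 9.10 in WT CSC, against 8.66, 8.32 and 8.77 in WT QSC, a difference of 0.57 ± 0.15 (SE; limma adjusted p = 0.0337). Neither pair of groups overlapped. The catalytic A subunit Atp6v1a differed by -0.16 and the regulatory H subunit Atp6v1h by -0.01, both with overlapping pools, and Atp6v1c1 by 0.48 (limma adjusted p = 0.0529).

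None of the 5 membrane proteins, the 6 proteases or the 2 accessory subunits passed. The structural glycoprotein Lamp1 read 11.21, 11.26 and 11.17 in WT CSC, against 11.21, 10.87 and 11.21 in WT QSC. Lamp2, needed for fusion of autophagosomes with lysosomes, differed by -0.35 (limma adjusted p = 0.194), and the cholesterol exporter Npc1 by -0.27. The cysteine protease Ctsb read 11.20, 11.16 and 11.26 in WT CSC, against 11.62, 11.57 and 11.50 in WT QSC. These Ctsb pools were separate, but the difference of -0.36 missed the threshold (limma adjusted p = 0.0685). The aspartic protease Ctsd and the cysteine protease Ctsl differed by 0.23 each, with overlapping pools. In all, 17 of the 47 tested members had pools that did not overlap, against 37.9% of all genes tested.

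**Figure D1:**
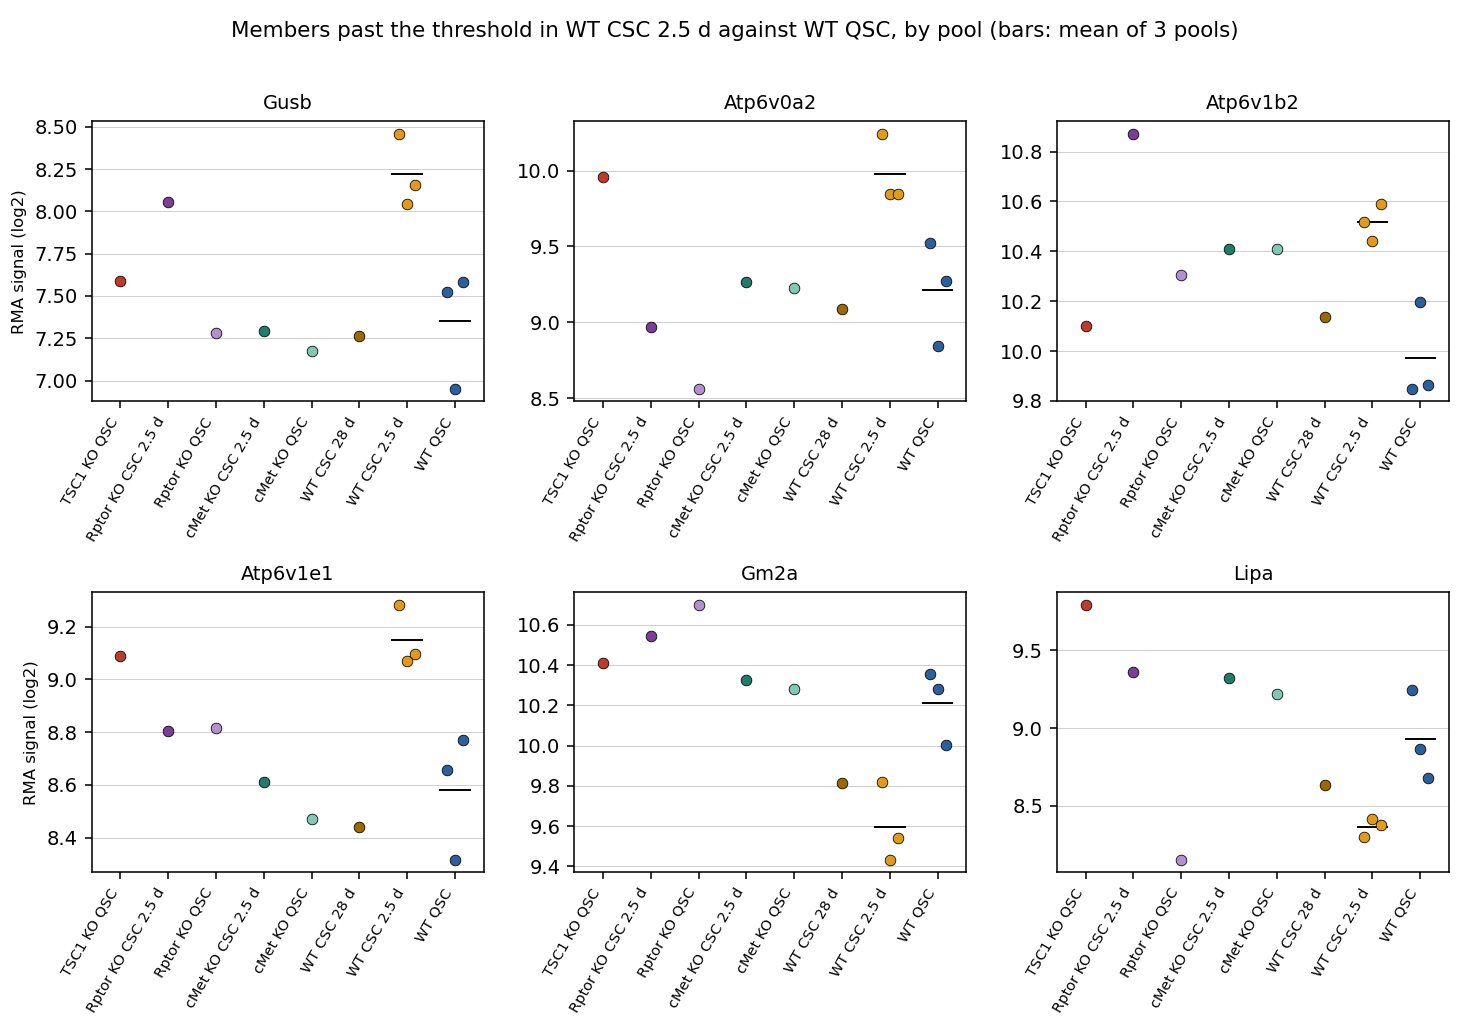
Log2 RMA signal of the 6 members past the threshold in WT CSC at 2.5 days against WT QSC. Each point is a pool, the 8 groups run along the horizontal axis, bars mark means of 3 pools, and each panel has its own vertical scale. In every panel the 3 WT CSC pools lie on one side of the 3 WT QSC pools. Lipa is high in the TSC1 KO QSC pool (9.79) and low in the Rptor KO QSC pool (8.15).

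These calls rest on few pools. Without WT CSC replicate 1 or 2 the comparison called 1 member, and without replicate 3 it called 0. Other cells' markers moved in the same pools. Of the 14 endothelial markers 10 were lower in WT CSC (median difference -1.13), as were 6 of 12 fibro-adipogenic (-0.68), 5 of 9 pericyte and smooth muscle (-0.83) and 6 of 13 satellite cell markers (-0.63). Of the 11 mature fibre markers 4 were higher (0.42), and of the 14 macrophage and monocyte markers none passed (0.01). Their part in the differences of Gusb, Gm2a, Lipa and the V-ATPase subunits was not tested.

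Related lists also held genes of both directions at 2.5 days. Of 24 other lysosomal hydrolases, 3 were lower in WT CSC: Ctsk by -0.70, Ctso by -0.78 and the iduronidase Idua by -0.77. Of 17 other lysosomal membrane proteins 1 was lower (Litaf, -0.50), and of 9 genes of mannose 6-phosphate sorting 1 was lower (Sort1, -0.53). The V-ATPase assembly factors Tmem199 (0.50) and Ccdc115 (0.49) were higher, 2 of 8 in that list. So were Lamtor1 (0.79) and Lamtor5 (0.43), 2 of the 13 Ragulator and Rag genes. The factors Tfeb (-0.23), Tfe3 (-0.17) and Mitf (-0.03) did not pass.

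At 28 days after injury, none of the 47 tested members differed from WT QSC (adjusted p), where 0% of all genes passed, and 3 had an unadjusted p under 0.05, against 4.56% of all genes. Against WT CSC at 2.5 days, 2 of 47 were higher at 28 days, where 8.38% of all genes passed in either direction and 2.06% were higher. Atp6ap2, the prorenin receptor that also serves V-ATPase assembly, read 11.22 in the 28-day pool, against 9.92, 10.02 and 9.89 at 2.5 days and 10.17, 10.54 and 10.11 in WT QSC. The 28-day pool was the highest of all 12 for this gene, with both of its arrays near that value (11.17 and 11.27). The difference from 2.5 days was 1.28 ± 0.21 (SE; limma adjusted p = 0.00865), and that from WT QSC was 0.95 ± 0.21 (SE; limma adjusted p = 0.470).

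Ctsb read 11.90 at 28 days, against the 11.16 to 11.26 of the pools at 2.5 days, a difference of 0.69 ± 0.17 (SE; limma adjusted p = 0.0368). With each of the 3 WT CSC pools left out in turn, the Ctsb call was lost (limma adjusted p = 0.0801 to 0.117), and that of Atp6ap2 was kept. Against WT QSC, the next smallest p-values at 28 days belonged to Atp6v1f (-0.55; limma adjusted p = 0.993) and Atp6v0e (-0.57; limma adjusted p = 0.999). Between the 28-day pool and WT QSC, the 14 endothelial markers had a median difference of -1.16 and were all negative. So were 12 of 12 fibro-adipogenic (-0.36), 9 of 9 pericyte and smooth muscle (-0.51), 13 of 14 macrophage (-0.45) and 10 of 11 mature fibre markers (-0.43), with no call in any of these lists. Between 28 and 2.5 days, 3 of 11 mature fibre markers were lower (median -0.82) and 1 of 13 satellite cell markers was higher (0.56), while 13 of 14 macrophage markers were negative without a call (-0.30). Their part was not tested.

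The second question is how the set read in QSC without TSC1, part of the complex that restrains mTORC1. Activity of mTORC1 itself is not measured by these arrays. In TSC1 KO QSC against WT QSC, no member passed the threshold, where 0.0143% of all genes did, so no single gene of the set can be called. The differences nevertheless leaned one way. Of the 47 tested members 45 read higher than the WT QSC mean in the TSC1 KO pool, against 56.3% of all genes, and the median difference was 0.39, against 0.04 over all genes. Within the WT QSC pools themselves, 34, 19 and 17 of the 47 read above the WT QSC mean. An unadjusted p under 0.05 was reached by 17 members, against 8.82% of all genes.

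The lean was present in each role. All 5 membrane proteins, 6 proteases, 10 glycosidases and sulfatase and 6 lipid-handling members had positive differences, with medians of 0.27, 0.46, 0.52 and 0.38. So did 6 of 7 V0 subunits, 10 of 11 V1 subunits and both accessory subunits, with medians of 0.39, 0.34 and 0.34. The exceptions were Atp6v0a4 (-0.21) and Atp6v1e2 (-0.09), isoforms known from kidney and testis. For 23 of the 47 members the TSC1 KO pool was the highest of the 12 pools, which held for 15.4% of all genes.

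The largest difference was that of Tpp1, the tripeptidyl peptidase lost in a neuronal ceroid lipofuscinosis. It read 10.23 in the TSC1 KO pool, against 9.47, 8.92 and 8.75 in WT QSC, a difference of 1.18 ± 0.29 (SE; limma adjusted p = 0.335). Lipa read 9.79 in the TSC1 KO pool, against 9.24, 8.87 and 8.68 in WT QSC, a difference of 0.86 ± 0.23 (SE; limma adjusted p = 0.369). For both genes the TSC1 KO pool lay above the whole WT QSC range. Without WT QSC replicate 1 the differences were 1.39 for Tpp1 and 1.02 for Lipa. That pool was the WT QSC pool nearest to the TSC1 KO pool for both genes. Leaving it out raises the difference and narrows the WT QSC spread at once, so no call is drawn from it.

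Atp6v1c1, a V1 stalk subunit, read 8.59 in the TSC1 KO pool, against 8.07, 7.66 and 7.75 in WT QSC, a difference of 0.76 ± 0.21 (SE; limma adjusted p = 0.393). Among other stalk subunits, Atp6v1d and Atp6v1g1 differed by 0.93 and 0.77, and others by less. Atp6v1e1 read 9.09 in the TSC1 KO pool, against 8.66, 8.32 and 8.77 in WT QSC. Atp6v1g2 read 8.56, against 8.32, 8.38 and 8.48. Hexa differed by 0.77, the palmitoyl thioesterase Ppt1 by 0.82 and the V0 subunit Atp6v0d1 by 0.74. Lamp1 differed by 0.53, Ctsd by 0.56 and Psap by 0.46, whereas Ctsb (0.21), Ctsl (0.13) and Lamp2 (0.16) lay nearer to 0. Pools were separate for 37 of the 47, against 53.5% of all genes in this comparison of 1 pool with 3.

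**Figure D2:**
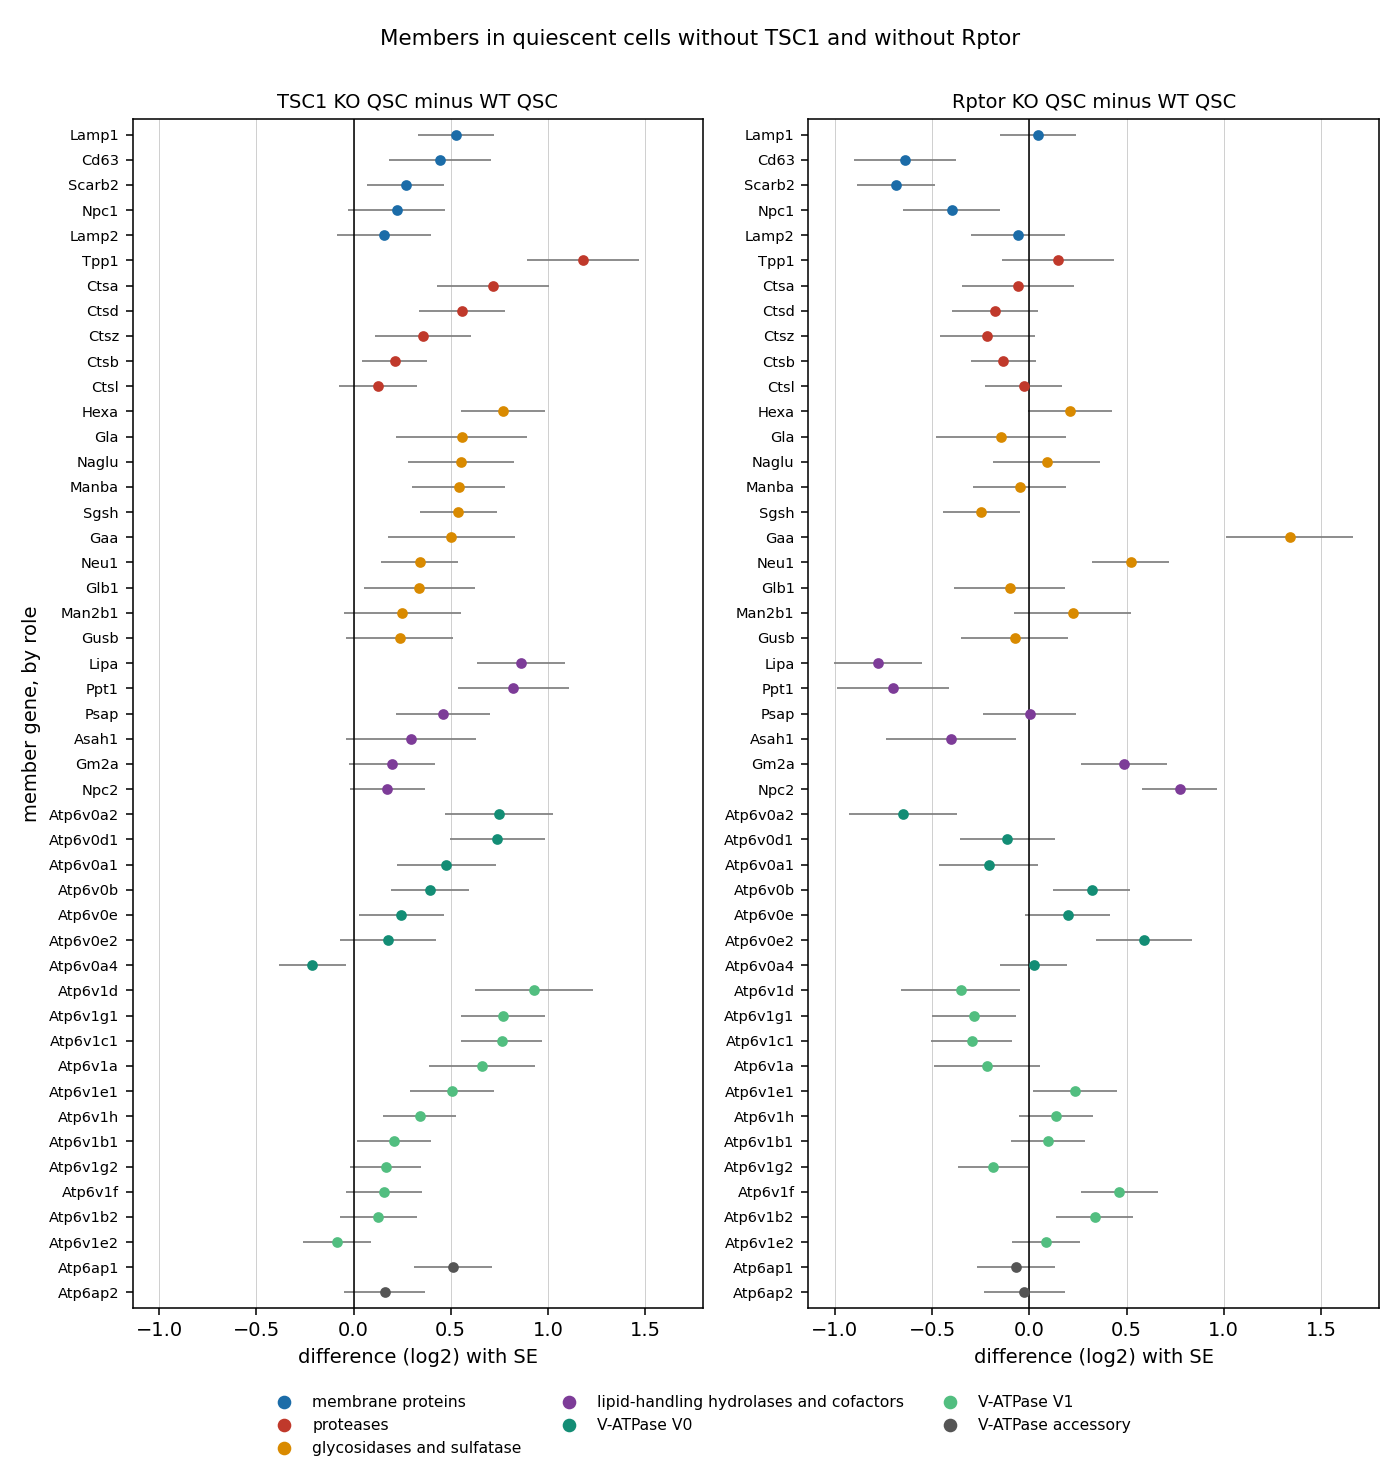
Log2 differences of the 47 tested members with their SE, TSC1 KO QSC minus WT QSC on the left and Rptor KO QSC minus WT QSC on the right, in the same gene order. Colours give the role. In the left panel 45 of 47 points lie right of 0, and in the right panel 20 of 47. Both panels subtract the same 3 WT QSC pools, and none of the differences passed the threshold.

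The 12 members with TCACGTG in their promoter all had positive differences in the TSC1 KO pool, from 0.25 to 0.74 with a median of 0.55. The 27 tested members whose promoters lack it had a median of 0.27 and a wider range, from -0.21 to 1.18. These 27 include Atp6v0a4, Atp6v1b1 and Atp6v1e2, which read at most 6.89, 6.73 and 6.98 in any pool, near the filter. The part of signal level in this split was not tested. Among all tested genes with a promoter at hand, the 707 with the letters had a median of 0.13 and the 10302 without them 0.05. Tpp1 and Lipa, near the top of the list, are among those without the letters in this window. Against WT QSC, the medians of members with and without the letters were -0.08 and -0.03 in Rptor KO QSC and 0.08 and 0.07 in cMet KO QSC. They were -0.15 and -0.19 in WT CSC at 2.5 days, and -0.26 and -0.14 at 28 days. In TSC1 KO QSC against Rptor KO QSC, which shares the TSC1 KO pool, they were 0.59 and 0.31. Tfeb (-0.02) and Tfe3 (0.08) differed little between the TSC1 KO pool and WT QSC, and Mitf by 0.56 (limma adjusted p = 0.572).

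Related lists read the same way without a call. Differences between TSC1 KO QSC and WT QSC were positive for 20 of 24 other hydrolases (median 0.48), 14 of 17 other membrane proteins (0.54), 9 of 9 sorting genes (0.51), 7 of 8 genes of the list of V-ATPase assembly factors and Tcirg1 (0.51) and 13 of 13 Ragulator and Rag genes (0.47). Marker lists differed as well. Satellite cell markers were positive in 11 of 13 (0.37) and mature fibre markers in 11 of 11 (0.62), while macrophage markers were negative in 12 of 14 (median -0.19), endothelial markers in 13 of 14 (-0.28) and fibro-adipogenic markers in 9 of 12 (-0.12). Pericyte and smooth muscle markers were positive in 5 of 9 (0.30). The part of these lists in the lean was not tested. Members as bright as the median member gave 24 of 24 positive differences, against 56.6% of the 3187 genes as bright.

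The Rptor KO QSC pool read on both sides of WT. In Rptor KO QSC against WT QSC none of the 47 tested members passed, where 0.122% of all genes did, and 10 had an unadjusted p under 0.05 (limma), against 11.3% of all genes. Of the differences 20 were positive and 27 negative, with a median of -0.06. The spread was wide. Gaa, the acid α-glucosidase that digests lysosomal glycogen, read 10.52 in the Rptor KO QSC pool, against 9.77, 8.80 and 8.97 in WT QSC, a difference of 1.34 ± 0.33 (SE; limma adjusted p = 0.185). Without WT QSC replicate 1, the highest WT QSC pool for Gaa, the difference was 1.63. Leaving out that pool also narrows the WT QSC spread, so no call is drawn from it. Npc2, the soluble cholesterol carrier, read 9.94 in the Rptor KO pool, against 9.14, 9.22 and 9.13 in WT QSC, a difference of 0.77 ± 0.19 (SE; limma adjusted p = 0.201).

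Scarb2, the membrane receptor that delivers glucocerebrosidase, read 9.07 in the Rptor KO QSC pool, against 9.72, 9.67 and 9.89 in WT QSC, a difference of -0.69 ± 0.20 (SE; limma adjusted p = 0.246). The arrays of the Rptor KO QSC pool lay apart for Scarb2, at 9.34 and 8.81. Lipa differed by -0.78, Ppt1 by -0.70, Cd63 by -0.64 and Atp6v0a2 by -0.65, all with adjusted p above the threshold. Lamp1 (0.05), Psap (0.00) and Atp6ap2 (-0.03) lay close to WT. Mature fibre markers were negative in 10 of 11 (median -0.25), satellite cell markers in 9 of 13 (-0.19) and endothelial markers in 9 of 14 (-0.12). Pericyte and smooth muscle markers were negative in 6 of 9 (-0.14) and fibro-adipogenic markers in 6 of 12 (-0.01), while macrophage markers were positive in 10 of 14 (0.12). None of these markers was called, and their part was not tested.

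Set directly against each other, TSC1 KO QSC and Rptor KO QSC differed in 1 member, where 1.55% of all genes passed in either direction and 1.26% were higher. Lipa read 9.79 in the TSC1 KO pool and 8.15 in the Rptor KO pool, a difference of 1.64 ± 0.28 (SE; 1 pool each; limma adjusted p = 0.0333). Its arrays read 9.72 and 9.86 in TSC1 KO, against 8.25 and 8.06 in Rptor KO. The call was lost when any of the 3 WT CSC pools was left out, which changes only the estimate of spread. Of the 47 differences 38 were positive, with a median of 0.46, against 54.4% and 0.05 for all genes. Ppt1 (1.52), Atp6v0a2 (1.40) and Atp6v1d (1.28) had the next largest positive differences, and Gaa (-0.84) and Npc2 (-0.60) the largest negative ones. Satellite cell markers were positive here in 12 of 13 (median 0.57), mature fibre markers in 11 of 11 with 1 called (1.22) and pericyte and smooth muscle markers in 7 of 9 with 1 called (0.42). Macrophage markers were negative in 13 of 14 (-0.34), endothelial in 10 of 14 (-0.15) and fibro-adipogenic in 8 of 12 (-0.12). Their part was not tested.

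After injury, the members called in Rptor KO cells were hydrolases and a hydrolase cofactor. In Rptor KO CSC against WT CSC at 2.5 days, 5 of the 47 tested members were higher and none lower. Of all genes 3.9% passed in either direction 0.924% were higher and 2.97% lower. The 5 were Ctsb, Ctsd, Hexa, Lipa and Gm2a. No V-ATPase subunit, membrane protein or accessory subunit passed.

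Ctsb read 12.15 in the Rptor KO CSC pool, against 11.20, 11.16 and 11.26 in WT CSC, a difference of 0.95 ± 0.17 (SE; limma adjusted p = 0.0210). Ctsd read 12.03 in the Rptor KO CSC pool, against 11.16, 10.95 and 11.02 in WT CSC, a difference of 0.98 ± 0.22 (SE; limma adjusted p = 0.0468). For both proteases this pool was the highest of the 12. The 2 arrays of the pool read 12.28 and 12.03 for Ctsb, and 12.08 and 11.97 for Ctsd. For Lipa, called in the same comparison, they read 9.58 and 9.14. Those of Hexa and Gm2a lay closer together than those of Ctsb and Lipa. The median gap between these 2 arrays over the members was 0.15. They correlated at 0.957, the lowest value of any pool with 2 arrays.

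Hexa read 10.04 in the Rptor KO CSC pool, against 8.95, 9.12 and 9.06 in WT CSC, a difference of 1.00 ± 0.22 (SE; limma adjusted p = 0.0394). Lipa read 9.36 in the Rptor KO CSC pool, against 8.30, 8.42 and 8.38 in WT CSC, a difference of 0.99 ± 0.23 (SE; limma adjusted p = 0.0483). Gm2a read 10.54 in the Rptor KO CSC pool, against 9.82, 9.43 and 9.54 in WT CSC, a difference of 0.95 ± 0.22 (SE; limma adjusted p = 0.0499). For Hexa, Lipa and Gm2a the Rptor KO CSC pool lay above every WT CSC pool but within the range of the QSC pools of the 4 genotypes. None of the 5 calls was kept when any of the 3 WT CSC pools was left out, where the comparison called 0 members. Gaa had the largest difference, 1.40, but missed the threshold (limma adjusted p = 0.0504), and Atp6v0a2 differed by -1.01 (limma adjusted p = 0.0819). The Gaa signal was no lower in the noninjured Rptor KO QSC pool (10.52) than in the Rptor KO CSC pool (10.38).

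The same Rptor KO CSC pool stood apart in macrophage and monocyte markers. Of 14 tested, 11 were higher than in WT CSC and none lower, with a median difference of 1.85. The lysozyme Lyz2 was higher by 3.05, the complement gene C1qb by 2.71 and the adaptor Tyrobp by 2.65. The mean over the 17 listed genes was 8.86 in this pool, against 7.16 to 7.24 in the WT CSC pools and 6.75 to 7.70 in the other 11 pools together. Among other hydrolases, Ctss (2.73), Ctsh (1.14), Ctsc (0.99) and the phosphatase Acp5 (0.77) were higher, 4 of 24. Of 11 mature fibre markers 2 were lower (median -0.97), and the 14 endothelial markers were all positive without a call (0.57). Their part in the differences of Ctsb, Ctsd, Hexa, Lipa and Gm2a was not tested.

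**Figure D3:**
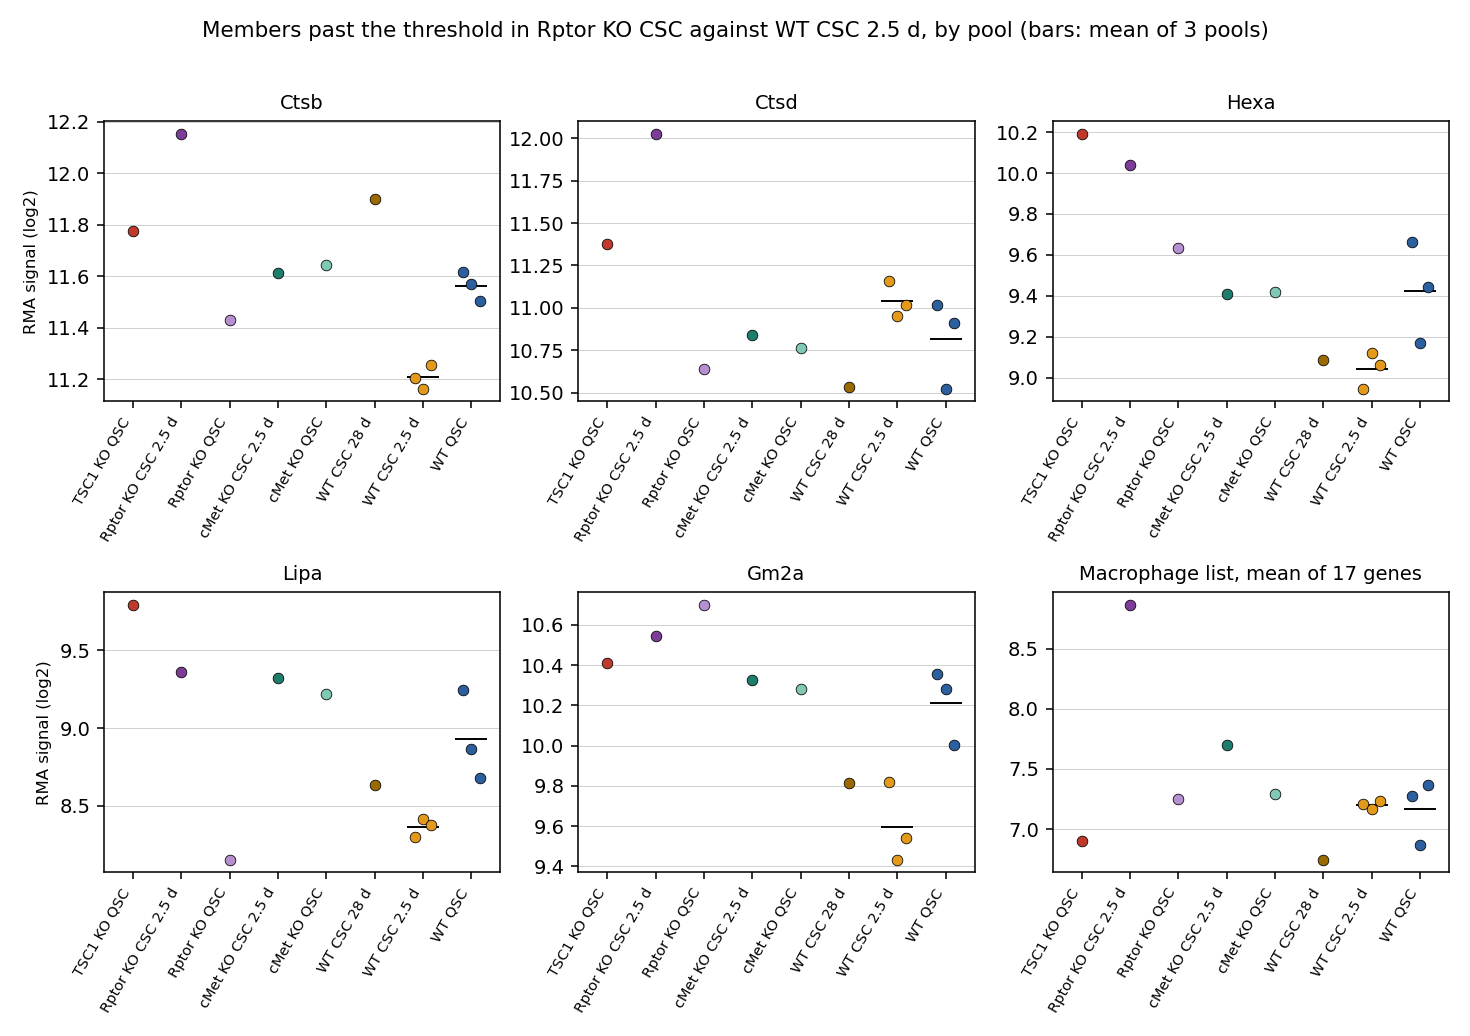
Log2 RMA signal of the 5 members higher in Rptor KO CSC than in WT CSC at 2.5 days, and the mean of the 17 macrophage and monocyte markers. Each point is a pool, the 8 groups run along the horizontal axis, bars mark means of 3 pools, and each panel has its own vertical scale. Ctsb (12.15), Ctsd (12.03) and the macrophage list (8.86) are highest in the Rptor KO CSC pool, whereas Hexa and Lipa are highest in TSC1 KO QSC and Gm2a in Rptor KO QSC.

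Within the Rptor KO genotype, CSC against QSC gave no call among the 47 tested members, where 0.258% of all genes passed. An unadjusted p under 0.05 (limma) was reached by 7 members, against 5.06% of all genes. Ctsd read 12.03 in CSC and 10.64 in QSC, a difference of 1.39 ± 0.27 (SE; 1 pool each; limma adjusted p = 0.141). Lipa read 9.36 in CSC and 8.15 in QSC, a difference of 1.20 ± 0.28 (SE; limma adjusted p = 0.241), and Ctsb differed by 0.72 (limma adjusted p = 0.475). The median over the 47 was 0.14, with 32 positive, against 43.5% of all genes. All 14 macrophage markers were positive here (median 1.63; 2 called), all 14 endothelial (-0.49) and all 12 fibro-adipogenic markers (-0.34) were negative without a call, and their part was not tested. The difference between this response and that of WT was not significant for any member, where 0% of all genes passed, and 4 members had an unadjusted p under 0.05 (limma), against 4.44% of all genes. It was 1.77 ± 0.32 (SE; limma adjusted p = 0.239) for Lipa, 1.08 (limma adjusted p = 0.380) for Ctsb and 1.16 (limma adjusted p = 0.624) for Ctsd. Both the Rptor KO response and the comparison with WT CSC use the single Rptor KO CSC pool.

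The last knockout removes cMet, the receptor for hepatocyte growth factor. In cMet KO QSC against WT QSC no member passed, where 0% of all genes did, and no member had an unadjusted p under 0.05, against 1.33% of all genes. The differences ran from -0.18 to 0.44. Of the 47, 34 were positive, against 54.7% of all genes, with a median of 0.08, against 0.02. Endothelial markers were positive in 14 of 14 (median 0.41), fibro-adipogenic in 9 of 12 (0.31), pericyte and smooth muscle in 6 of 9 (0.12) and macrophage in 8 of 14 (0.04). Satellite cell markers were negative in 11 of 13 (-0.15) and mature fibre markers in 10 of 11 (-0.25). No marker was called, and their part was not tested. Atp6v1h read 9.22 in the cMet KO QSC pool, against 8.67, 8.97 and 8.75 in WT QSC, a difference of 0.42 ± 0.19 (SE; limma adjusted p = 1.000). Atp6v1b2 differed by 0.44 and Atp6ap2 by 0.29, with limma adjusted p = 1.000 for each.

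In cMet KO CSC against cMet KO QSC, again no member passed and 0% of all genes did, and no member had an unadjusted p under 0.05 (limma), against 0.537% of all genes. The differences ran from -0.42 (Atp6v0e2) to 0.24 (Atp6v1c1), with Atp6ap2 at -0.24. The median over the 47 was -0.03, the same as over all genes. Endothelial markers were positive in 14 of 14 (median 0.29), macrophage in 13 of 14 (0.40) and fibro-adipogenic in 7 of 12 (0.14). Satellite cell markers were negative in 11 of 13 (-0.23), mature fibre in 9 of 11 (-0.13) and pericyte and smooth muscle in 5 of 9 (-0.01). No marker was called, and their part was not tested. The response of cMet KO minus that of WT was not significant for any member, where 0.158% of all genes passed, and none had an unadjusted p under 0.05 (limma), against 9.52% of all genes. It was 0.66 for Gm2a (limma adjusted p = 0.562), 0.67 for Lipa (limma adjusted p = 0.574) and -0.55 for Atp6v1b2 (limma adjusted p = 0.629). All 3 were called in WT CSC against WT QSC, and a difference of their response from that in WT was not shown. In this difference of responses, endothelial (median 1.37), fibro-adipogenic (0.58), pericyte and smooth muscle (0.61) and macrophage markers (0.26) were all positive. Satellite cell markers were positive in 11 of 13 (0.39) and mature fibre markers negative in 9 of 11 (-0.62), with 1 called. Their part was not tested.

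In cMet KO CSC against WT CSC at 2.5 days, 1 of 47 tested members was higher, where 6.74% of all genes passed in either direction and 3.4% were higher. Lipa read 9.32 in the cMet KO CSC pool, against 8.30, 8.42 and 8.38 in WT CSC, a difference of 0.96 ± 0.23 (SE; limma adjusted p = 0.0406). The cMet KO QSC pool read 9.22. The call was lost when any of the 3 WT CSC pools was left out. In the same comparison 11 of 14 endothelial (median 1.77), 6 of 12 fibro-adipogenic (0.98), 2 of 9 pericyte and smooth muscle (0.95) and 2 of 14 macrophage markers (0.48) were higher and 1 of 11 mature fibre markers was lower (-0.91), and their part was not tested.

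**Figure D4:**
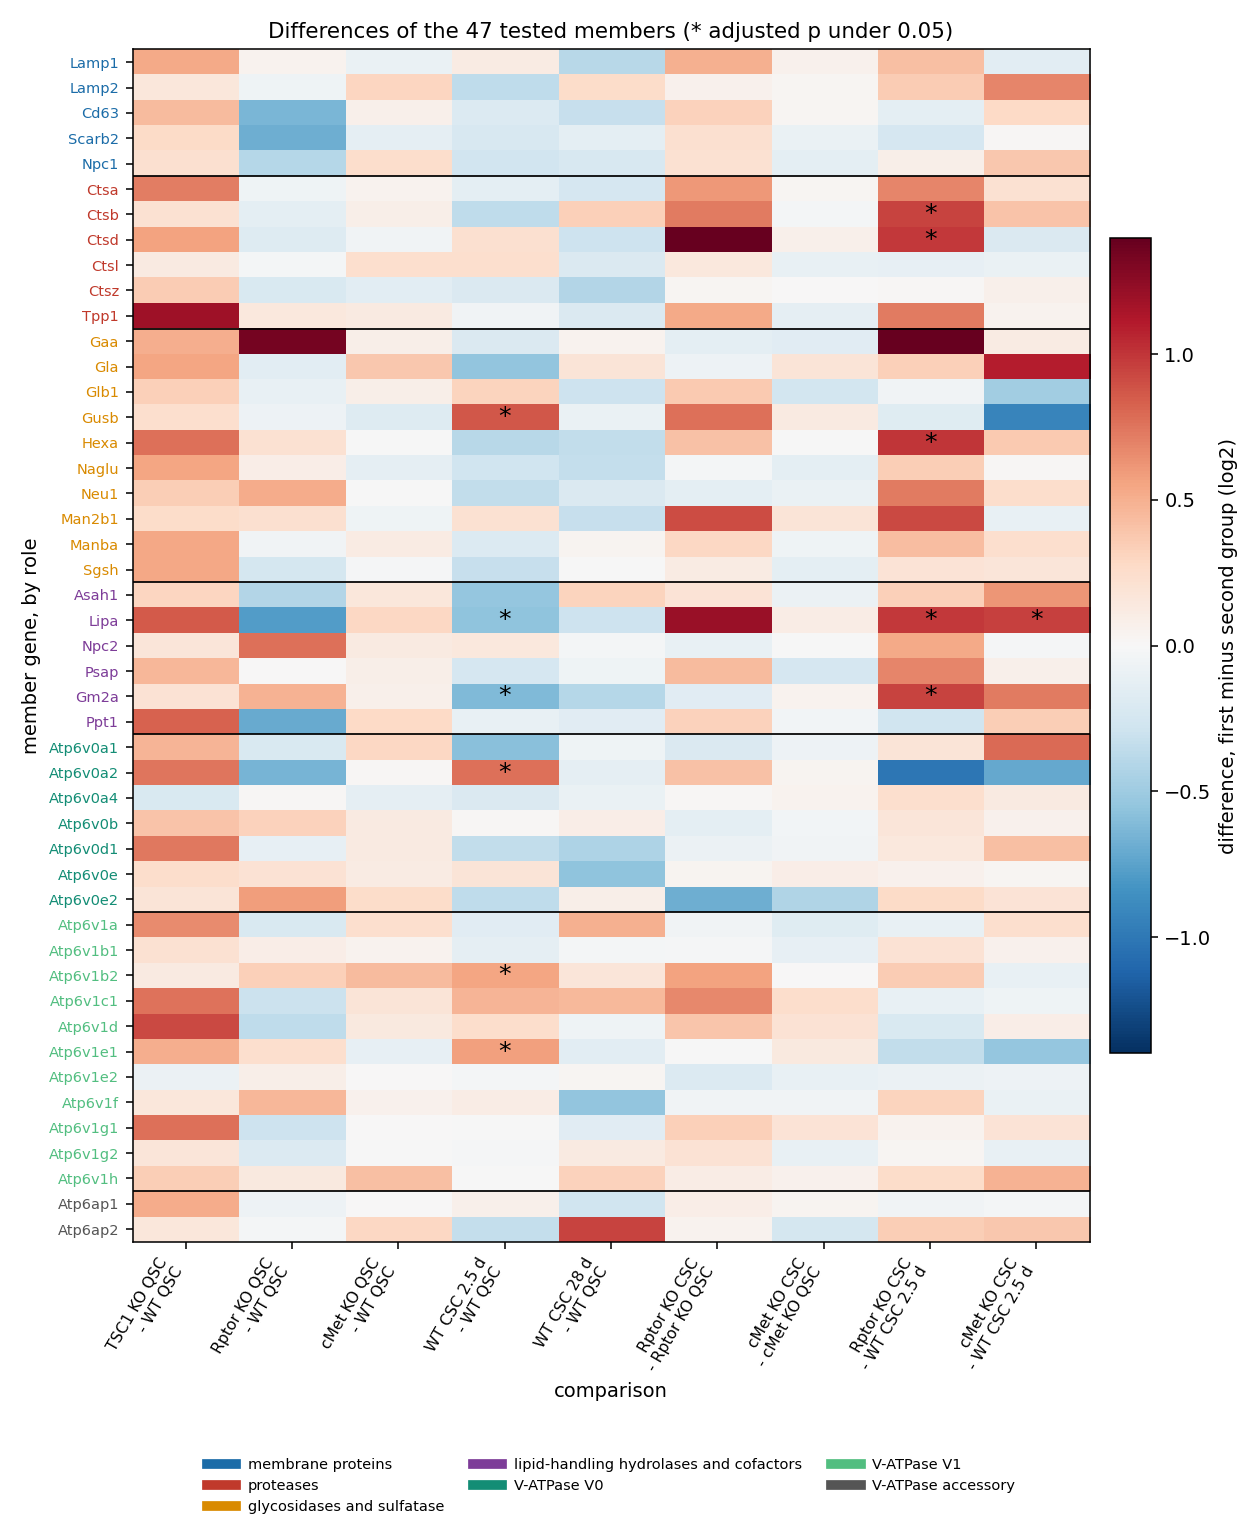
Log2 differences of the 47 tested members (rows, grouped and coloured by role) in 9 comparisons (columns, first minus second group), with an asterisk where the adjusted p was under 0.05. The column TSC1 KO QSC minus WT QSC is positive in 45 of 47 rows without an asterisk, and the asterisks fall in WT CSC minus WT QSC (6), Rptor KO CSC minus WT CSC (5) and cMet KO CSC minus WT CSC (1).

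Lipa was the member called most often, in 4 of the 13 comparisons. With a WT pool left out, its call in WT CSC against WT QSC held in 1 of 6 fits, and each other call in 3 of 6. By pool it read 9.79 in TSC1 KO QSC, 9.36 in Rptor KO CSC, 8.15 in Rptor KO QSC, 9.32 in cMet KO CSC and 9.22 in cMet KO QSC, and 8.64 in WT CSC at 28 days. The WT CSC pools at 2.5 days lay between 8.30 and 8.42 and the WT QSC pools between 8.68 and 9.24. The comparisons with WT CSC share its 3 pools and are not independent of each other. The 3 members under the filter were Atp6v0d2, an isoform known from osteoclasts and kidney, from 4.98 to 6.59 with its highest value in the Rptor KO CSC pool, Atp6v1c2, from 6.23 to 6.60 and Atp6v1g3, from 5.69 to 6.37.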

How the data were processed

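Gene expression was measured on 21 Affymetrix Mouse Gene 1.0 ST arrays of 100 ng RNA, from 12 pools in 8 groups. The deposited values are log2 signals of 35556 probesets; the submitters' processing notes name RMA and Affymetrix Expression Console. Version, genome build and which arrays were normalized together: not given in the sources used here. Array medians ran from 7.03 to 7.21. The number of arrays limits the precision.

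Of the probesets 21789 have 1 symbol in the platform table. The brightest was kept per gene, arrays of a pool were averaged, and only genes at or above the 30th percentile of mean signal (log2 6.45) were tested. The model had 8 group means (limma 3.58.1, lmFit then eBayes; R 4.3.3), with 13 contrasts, Benjamini-Hochberg adjustment over all 13956 genes and a threshold of 0.05; the step was tested on simulated data. All 4 residual degrees of freedom come from WT pools, so a single pool is assumed to vary like them. Each SE is the moderated one. WT pools are titled as biological replicates.

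Named members are the 3 smallest p per role among called members in WT CSC at 2.5 days (or the smallest p), the called members or the 3 smallest p of each other contrast, and Lamp1, Lamp2, Ctsb, Ctsd, Ctsl, Psap, Npc1, Atp6v1a, Atp6v1h and Atp6ap2, with called genes of related lists; other members named with a value were picked after values were seen. The members and lists were chosen with earlier results of these data known. Alternatives were another normalization (quantile, median centring), other filters, the mean of probesets, trend and robust eBayes, every array with a random block for its pool, single arrays, WT pools left out, a replicate block and WT pools alone. Motifs were searched as exact letters. Figures were drawn with matplotlib 3.10.9.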

Additional observations from a re-analysis of the deposited data

How the results depend on the processing

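Among the named members' differences under the alternatives, 669 kept their direction and side of the threshold, 84 kept only the direction and lost the call, 10 gained one, and 4 changed sign. Those 4 all concern Atp6v1h in WT CSC at 2.5 days against WT QSC (reported as -0.01): 0.023 after median centring, 0.075 with the first array of each pool alone, 0.074 without WT QSC replicate 2 and 0.041 without WT CSC replicate 1, in a range of -0.074 to 0.074 over the pools left out. With all arrays and the pool as a random block, which counts 21 arrays, members called were 10 for WT CSC 2.5 d against WT QSC (6 reported), 1 for WT CSC 28 d against WT QSC (0), 9 for 28 d against 2.5 d (2), 3 for TSC1 KO QSC against WT QSC (0), 2 for Rptor KO QSC against WT QSC (0), 12 for TSC1 KO against Rptor KO QSC (1), 1 for Rptor KO CSC against QSC (0), 12 for Rptor KO CSC against WT CSC (5), 6 for cMet KO CSC against WT CSC (1) and 1 for the Rptor KO response minus the WT response (0). Median centring called 1 for 28 d against 2.5 d, 1 for Rptor KO CSC and 0 for cMet KO CSC against WT CSC. No filter called 0 for TSC1 KO against Rptor KO QSC, 1 for Rptor KO CSC and 0 for cMet KO CSC against WT CSC. Trend and robust eBayes called 2 for Rptor KO CSC and 0 for cMet KO CSC against WT CSC. The first array of each pool alone called 1 for 28 d against 2.5 d and 2 for TSC1 KO against Rptor KO QSC. The second array where a pool has one, an alternative chosen after the data were seen, called 3 for WT CSC against WT QSC, 1 for 28 d against 2.5 d, and 0 for TSC1 KO against Rptor KO QSC, Rptor KO CSC against WT CSC and cMet KO CSC against WT CSC. Leaving out each WT pool in turn gave 0 to 9 members for WT CSC against WT QSC, 1 to 6 for 28 d against 2.5 d, 0 to 3 for TSC1 KO QSC against WT QSC, 0 to 1 for Rptor KO QSC against WT QSC, 0 to 5 for TSC1 KO against Rptor KO QSC, 0 to 1 for Rptor KO CSC against QSC, 0 to 9 for Rptor KO CSC against WT CSC and 0 to 3 for cMet KO CSC against WT CSC. The replicate block called 8 members for WT CSC against WT QSC. Deviations of same-numbered pools correlated at 0.32, -0.03 and -0.03, and those of differently numbered pools at -0.31 to 0.32. With 3 pools per group these values cannot tell whether same-numbered pools were paired or shared a batch. The cause of these changes was not tested. In TSC1 KO QSC against WT QSC, 43 of 43 tested members were positive with the filter at the 50th percentile and 45 of 50 with no filter. Under the other alternatives that include this comparison, 44 to 46 of 47 were positive. Of all genes 47.6% to 69.4% were positive, the highest share after median centring. Members had medians of 0.35 to 0.50, against -0.01 to 0.14 for all genes.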
